A study of Mus musculus with 16 samples.

Results

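A set of 9 complement genes were followed in mouse visceral fat: C1qa, C1qb and C1qc, which encode the 3 chains of C1q, the components C2, C3, C4b and Cfb, and the anaphylatoxin receptors C3ar1 and C5ar1. They were taken by symbol, with earlier results of these data known, and are 9 of the 45777 genes in the deposited table. All 9 passed the filter on low counts that left 19189 genes for testing. The tissue was the epididymal fat pad of male mice that overexpress leukotriene A4 hydrolase, the enzyme that makes leukotriene B4, in adipocytes (OE), and of control mice (Ctrl). All 4 groups, the controls included, received a high-fat diet with 60 kcal% fat from 4 weeks of age. The 8-week groups had been on it for 4 weeks and the 20-week groups for 16 weeks, with 4 libraries in each group. Each library carries a mouse number, and pooling of mice is not mentioned. The labels do not say which promoter or Cre line drives the transgene, name no strain for the controls, and give no batch. Age, time on the diet and any batch that followed them cannot be told apart.

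Complement is a protein cascade that tags cells and debris for removal. C1q recognises antibody and altered surfaces, and its proteases then cleave C4 and C2, whose fragments join into the enzyme that splits C3. Factor B (Cfb) forms the corresponding enzyme of the alternative pathway after cleavage by factor D (Cfd, adipsin), a classical secretory product of adipocytes. The released fragments C3a and C5a act on leukocytes through C3ar1 and C5ar1, and in many tissues macrophages are the main source of C1q.

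The libraries held 33626901 to 67576994 counts. Lta4h, the transgene's gene, ranged from 251 to 427 CPM (the count divided by the library size, which was scaled with TMM factors) in OE against 79.4 to 104 in Ctrl at 8 weeks, and from 239 to 286 against 82.4 to 95.4 at 20 weeks. Some libraries stood apart from their group. On the first principal component the 20-week libraries lay between -96.6 and -66.7 and the 8-week libraries between 68.8 and 125, except OE mouse 1 at 20 weeks (22.4) and the mice numbered 1 at 8 weeks (-29.9 in Ctrl and -19.5 in OE), so this component did not part the ages for these libraries. Both mice numbered 1 at 8 weeks also lay apart on the second component (-94.2 and -91.8). Transcripts of epididymal epithelium summed to 3690 CPM in Ctrl mouse 4 and 2430 CPM in OE mouse 2 at 8 weeks, and to at most 167 CPM elsewhere. Some results that rest on these libraries are given with and without them.

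The C1q chains, the receptors and C3 rose in both genotypes, and the promoters available for the chains and the receptors are shown. The genes C1qb, C1qc and C1qa lie in this order within 18719 bases of chromosome 4, all on the minus strand (mm10), and C3ar1 (chr6:122847140-122856157) and C5ar1 (chr7:16246743-16259540) stand on other chromosomes, also on the minus strand. Promoter sequences, from 250 bases before to 50 after the start, were taken from RefSeq (GRCm38.p6, the assembly behind mm10), which matched 5 of the 9 genes. Those of C1qb (chr4:136886151-136886450), C1qc (chr4:136892865-136893164), C3ar1 (chr6:122856108-122856407) and C5ar1 (chr7:16259289-16259588) follow 5′ to 3′ on the minus strand, with motif matches in capitals.
C1qb: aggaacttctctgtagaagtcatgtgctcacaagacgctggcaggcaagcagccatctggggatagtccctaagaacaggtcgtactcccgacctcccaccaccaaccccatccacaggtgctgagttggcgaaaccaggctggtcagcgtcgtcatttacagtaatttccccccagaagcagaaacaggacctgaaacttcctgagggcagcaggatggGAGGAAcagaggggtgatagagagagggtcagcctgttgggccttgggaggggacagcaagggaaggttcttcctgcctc
C1qc: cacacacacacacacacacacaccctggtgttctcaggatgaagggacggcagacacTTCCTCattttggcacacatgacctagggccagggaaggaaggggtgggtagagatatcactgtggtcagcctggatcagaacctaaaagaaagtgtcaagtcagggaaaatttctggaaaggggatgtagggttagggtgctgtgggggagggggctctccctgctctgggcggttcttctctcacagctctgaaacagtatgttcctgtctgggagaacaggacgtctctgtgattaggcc
C3ar1: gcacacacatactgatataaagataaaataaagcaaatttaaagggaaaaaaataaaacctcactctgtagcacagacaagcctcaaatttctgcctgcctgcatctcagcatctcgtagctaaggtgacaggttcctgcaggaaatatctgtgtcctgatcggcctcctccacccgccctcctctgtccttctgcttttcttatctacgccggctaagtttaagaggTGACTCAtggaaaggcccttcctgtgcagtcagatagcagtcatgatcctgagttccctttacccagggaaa
C5ar1: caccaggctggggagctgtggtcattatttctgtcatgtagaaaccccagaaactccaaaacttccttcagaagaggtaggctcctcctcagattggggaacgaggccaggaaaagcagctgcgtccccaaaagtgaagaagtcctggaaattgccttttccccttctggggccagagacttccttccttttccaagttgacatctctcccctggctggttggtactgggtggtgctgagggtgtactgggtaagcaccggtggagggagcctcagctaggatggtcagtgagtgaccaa
Both strands were searched for the PU.1 core GAGGAA, the AP-1 motif TGANTCA and the C/EBP core TTGCNNAA. The C1qb promoter held GAGGAA at -30 to -25 from the start, and the C1qc promoter held its reverse complement TTCCTC at -193 to -188. The C3ar1 promoter held TGACTCA at -22 to -16, and C5ar1 had none of these letters in this window. The start used for C5ar1 lies inside the gene span given above, so its outer end was not searched in full. The C3 promoter, not printed, held TTGCGAAA at -45 to -38. Of 32851 RefSeq promoters of the same length, 28.3% held the PU.1 core, 7.81% the AP-1 motif and 10.8% the C/EBP core. C1qa, C2, C4b and Cfb had no promoter entry, and the 5 genes searched all rose. The matches thus describe letters only and cannot part genes that rose from those that did not.

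The order of the transcripts changed between the ages. On the per-length TPM scale, C3 led in Ctrl at 8 weeks with 468 ± 87.8 TPM (SD, n = 4), followed by C4b at 443 ± 111, Cfb at 325 ± 125, and C1qc, C1qb and C1qa at 310, 301 and 289. Each of these overlapped the next in the order. C2 lay below all of them at 116 ± 44.3 TPM, and the receptors C5ar1 and C3ar1 were lowest at 18.4 and 12.1 TPM. In OE at 8 weeks C3 (588 ± 114 TPM) and C4b (506 ± 34.0) again led, and the C4b libraries did not overlap those of C1qc (357 ± 68.6), which came next. At 20 weeks C1qb stood first in Ctrl (1488 ± 310 TPM) and in OE (1153 ± 335), then C1qc (1463 and 1063), C3 (1276 and 1008), C1qa (1103 and 813), C4b (632 and 683) and Cfb (405 and 437), each overlapping its neighbour. Cfb did not overlap C5ar1 (189 and 134 TPM), the receptors overlapped each other, and C2 came last at 58.9 TPM in Ctrl and 48.4 in OE, below every C3ar1 library of its group. C1qb thus ranked 454th of 45777 genes by mean TPM in Ctrl at 8 weeks and 79th at 20 weeks, and C3ar1 ranked 8296th and 891st.

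**Figure D1:**
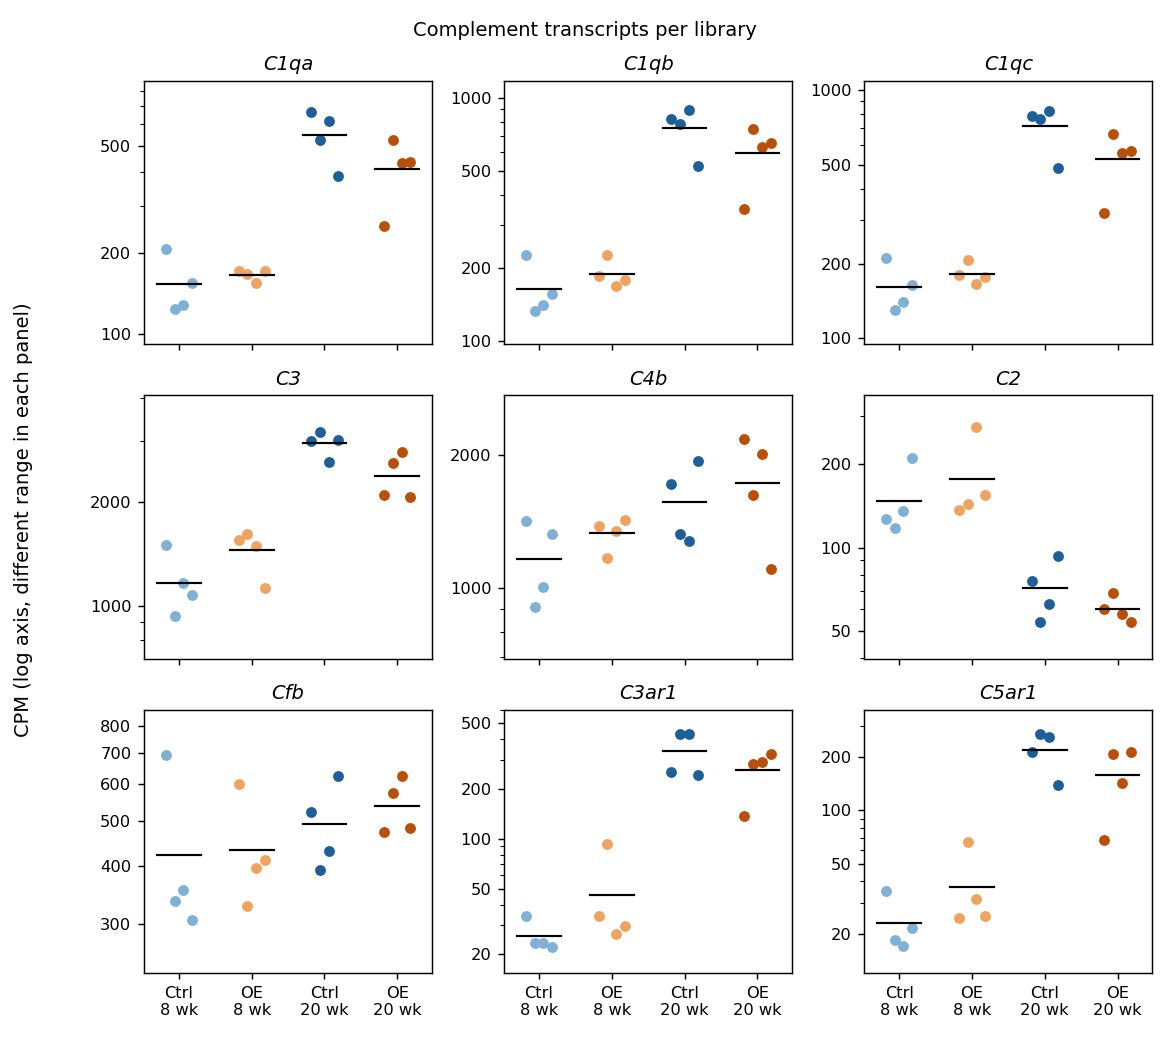
CPM of each gene in every library on a log axis whose range differs between panels. Points are libraries in the order of their numbers and bars are group means (n = 4); the C1q chains, C3, C3ar1 and C5ar1 sit higher and C2 lower at 20 weeks in both genotypes, whereas Cfb and C4b overlap.

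From 8 to 20 weeks, 6 of the 9 genes rose in Ctrl and 1 fell, beside 19.6% of all genes tested that rose and 21.3% that fell (edgeR quasi-likelihood test, Benjamini-Hochberg adjusted p under 0.05 over 19189 genes). In OE 6 rose and 1 fell, beside 13.1% and 9.91% of all genes. The 6 that rose were C1qa, C1qb, C1qc, C3, C3ar1 and C5ar1 in both genotypes, and the 1 that fell was C2. Either way, 7 of 9 changed in each genotype, beside 40.9% of all genes in Ctrl and 23% in OE. The groups did not overlap for any of these 7 genes, which holds for 33.2% of all genes in Ctrl and 22.3% in OE. The median log2 fold change of the 9 genes was 1.84 in Ctrl and 1.31 in OE, against -0.05 and -0.03 over all genes.

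The C1q chains rose together. C1qb, which gave 226, 133, 140 and 156 CPM in Ctrl mice 1 to 4 at 8 weeks, gave 822, 784, 890 and 525 CPM at 20 weeks. In OE it gave 185, 225, 169 and 177 CPM at 8 weeks and 348, 749, 631 and 654 CPM at 20 weeks. Ctrl mouse 4 and OE mouse 1 were the lowest of the older groups, and both still lay above every 8-week library of their genotype. The log2 fold change of C1qb was 2.21 ± 0.24 (SE) in Ctrl, 4.62-fold (edgeR adjusted p = 4.72e-05), and 1.66 ± 0.24 in OE, 3.15-fold (adjusted p = 6.10e-04). C1qc rose 4.43-fold in Ctrl (log2 2.15 ± 0.23) and 2.89-fold in OE (1.53 ± 0.22). Its CPM ran from 130 to 210 and from 485 to 822 in Ctrl, and from 166 to 207 and from 318 to 663 in OE. C1qa rose 3.57-fold in Ctrl (log2 1.84 ± 0.23) and 2.48-fold in OE (1.31 ± 0.22). Its CPM ran from 124 to 207 and from 385 to 666 in Ctrl, and from 154 to 172 and from 252 to 526 in OE. Without OE mouse 1 at 20 weeks and both mice numbered 1 at 8 weeks, the log2 values were 2.40 and 1.83 for C1qb, 2.30 and 1.69 for C1qc, and 2.01 and 1.5 for C1qa in Ctrl and OE. With 2 surrogate variables in the fit, the Ctrl values fell to 1.41, 1.40 and 1.17 for C1qb, C1qc and C1qa, each with an edgeR adjusted p of at most 0.0130.

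The chains did not keep the same balance. C1qa made up 32.1% ± 0.46 (SD, n = 4) of the summed TPM of the C1q chains in Ctrl at 8 weeks and 31.0% ± 2.16 in OE. At 20 weeks it made up 27.2% ± 1.67 in Ctrl and 26.9% ± 0.49 in OE. Every Ctrl library at 20 weeks (25.4% to 29.3%) lay below every Ctrl library at 8 weeks (31.5% to 32.6%). The OE libraries at 20 weeks (26.3% to 27.4%) also lay below those at 8 weeks, where OE mouse 2 was lowest at 27.9%. C1qb took the larger share, 33.4% in Ctrl and 34.4% in OE at 8 weeks against 36.7% and 38% at 20 weeks. C1qc stayed between 33.4% and 37.5% in all 16 libraries. No test of these shares was run.

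**Figure D2:**
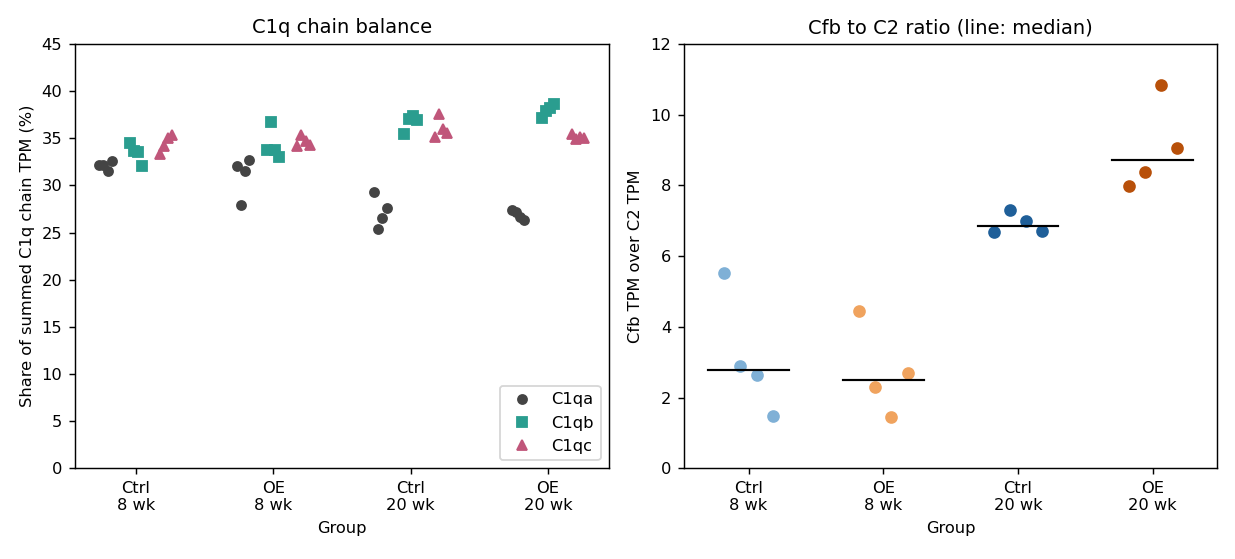
Left, share of the summed C1q chain TPM held by C1qa, C1qb and C1qc in each library; right, Cfb TPM divided by C2 TPM in each library, with the group median as a bar. C1qa is lower at 20 weeks in both genotypes, and the Cfb to C2 ratio lies between 6.68 and 10.9 at 20 weeks and at most 5.53 at 8 weeks.

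C3, the component on which all routes converge, gave 1500, 934, 1163 and 1079 CPM in Ctrl at 8 weeks and 3006, 3192, 2616 and 3032 CPM at 20 weeks. In OE it gave 1552, 1620, 1495 and 1130 CPM at 8 weeks and 2097, 2591, 2788 and 2073 CPM at 20 weeks. The ages did not overlap in either genotype, and the 20-week Ctrl libraries spanned a narrower range than those of OE. C3 rose 2.53-fold in Ctrl (log2 1.34 ± 0.16, edgeR adjusted p = 7.59e-05) and 1.65-fold in OE (0.72 ± 0.16, adjusted p = 0.00620). With 2 surrogate variables the OE value was 0.52 and not called (adjusted p = 0.0514).

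C4b, which encodes complement C4, was not called between the ages. It gave 1418, 906, 1008 and 1329 CPM in Ctrl at 8 weeks and 1717, 1327, 1281 and 1939 CPM at 20 weeks. In OE the values were 1380, 1172, 1344 and 1422 CPM, then 2167, 1626, 2002 and 1105 CPM. The ages overlapped in both genotypes, and OE mouse 4 at 20 weeks was lower than all OE libraries at 8 weeks. The log2 fold change was 0.43 ± 0.21 in Ctrl (95% interval -0.02 to 0.87, edgeR adjusted p = 0.116) and 0.38 ± 0.21 in OE (-0.07 to 0.82, adjusted p = 0.208). With limma voom and sample quality weights the Ctrl value was called at 0.50 (adjusted p = 0.0249). Its counts are uncertain, because the longest transcripts of C4b and of its neighbour C4a are 95.9% identical over 5378 bases. The ratio of C4b to C4a counts stayed between 15.5 and 17.3 in all 16 libraries.

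C2, the protease partner of C4 in the classical C3-splitting enzyme, was the 1 gene that fell. It gave 126, 117, 136 and 210 CPM in Ctrl at 8 weeks and 75.8, 53.8, 62.5 and 93.6 CPM at 20 weeks. In OE it gave 137, 144, 273 and 155 CPM at 8 weeks and 59.8, 68.6, 57.7 and 53.7 CPM at 20 weeks. Every 20-week library lay below every 8-week library, and Ctrl mouse 4 and OE mouse 3 were the highest at 8 weeks. C2 fell 2.07-fold in Ctrl (log2 -1.05 ± 0.24, edgeR adjusted p = 0.00417) and 2.95-fold in OE (-1.56 ± 0.24, adjusted p = 8.52e-04). With single libraries left out the Ctrl value ranged from -1.20 to -0.83. With 2 surrogate variables the Ctrl value was -0.94 and not called (adjusted p = 0.131).

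Cfb, the alternative pathway counterpart of C2, lies 87 bases from C2 on the same strand of chromosome 17, and an annotated readthrough transcript (Gm20547) spans both, so some reads could belong to either. Cfb gave 691, 336, 355 and 307 CPM in Ctrl at 8 weeks and 521, 391, 431 and 623 CPM at 20 weeks. In OE it gave 598, 328, 395 and 413 CPM, then 473, 573, 625 and 483 CPM. The mice numbered 1 were the highest of both 8-week groups, and the ages overlapped. The log2 fold change was 0.22 ± 0.25 in Ctrl (95% interval -0.32 to 0.76, edgeR adjusted p = 0.510) and 0.31 ± 0.25 in OE (-0.23 to 0.85, adjusted p = 0.389). Without Ctrl mouse 1 at 8 weeks the Ctrl value was 0.56 (adjusted p = 0.0391), and without both mice numbered 1 at 8 weeks the values were 0.56 in Ctrl (adjusted p = 0.0156) and 0.51 in OE (adjusted p = 0.0396), all called. The TPM of Cfb divided by that of C2 ran from 1.48 to 5.53 in Ctrl and from 1.46 to 4.44 in OE at 8 weeks. At 20 weeks it ran from 6.68 to 7.30 in Ctrl and from 7.97 to 10.9 in OE, above every 8-week library. The genotypes did not overlap for the Cfb to C2 ratio at 20 weeks. The share of gene ratios without overlap was not computed. Of single genes tested, 2.73% did not overlap in CPM, which is no measure for a ratio such as that of Cfb to C2. No test of this ratio was run, and neither gene was called between the genotypes.

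The 2 receptors had the largest log2 fold changes of the 9 genes in both genotypes. C3ar1, the receptor for C3a, gave 34.1, 23.5, 23.3 and 22.2 CPM in Ctrl at 8 weeks and 253, 432, 434 and 245 CPM at 20 weeks. The OE values were 34.3, 92.7, 26.6 and 29.8 CPM at 8 weeks and 138, 285, 292 and 327 CPM at 20 weeks. OE mouse 2 stood above the other 8-week libraries and OE mouse 1 below the other 20-week libraries, without overlap between the ages. C3ar1 rose 13.2-fold in Ctrl (log2 3.73 ± 0.42, edgeR adjusted p = 5.36e-05) and 5.68-fold in OE (2.51 ± 0.40, adjusted p = 9.60e-04). Without OE mouse 2 at 8 weeks the OE value was 3.11, and with 2 surrogate variables the Ctrl value was 2.49.

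C5ar1, the receptor for C5a, gave 35, 18.5, 17.1 and 21.6 CPM in Ctrl at 8 weeks and 214.5, 269, 260 and 139 CPM at 20 weeks. OE libraries held 24.6, 66.0, 31.4 and 25.2 CPM at 8 weeks and 68.3, 209, 143 and 214 CPM at 20 weeks. The OE libraries came close, with mouse 1 at 20 weeks at 68.3 CPM just above mouse 2 at 8 weeks at 66.0 CPM. C5ar1 rose 9.59-fold in Ctrl (log2 3.26 ± 0.42, edgeR adjusted p = 9.98e-05) and 4.31-fold in OE (2.11 ± 0.40, adjusted p = 0.00244). Without OE mouse 1 at 20 weeks the OE value was 2.36, and without OE mouse 2 at 8 weeks it was 2.55. With 2 surrogate variables the log2 values were 1.80 in Ctrl and 1.3 in OE, both called.

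Between the genotypes, 0 of the 9 genes were called at either age with edgeR, and DESeq2 and limma voom also called 0. Of all genes tested, 0.0208% were called at 8 weeks and 0.0261% at 20 weeks. All 9 genes overlapped between the genotypes at both ages, where 1.24% of all genes at 8 weeks and 2.73% at 20 weeks did not. At an unadjusted p under 0.05, 1 of the 9 genes passed at 8 weeks, 0 at 20 weeks and 2 in the interaction of genotype and age, beside 424, 762 and 650 of all genes. At 8 weeks all 9 log2 fold changes were above 0, from 0.04 for Cfb to 0.83 ± 0.38 for C3ar1 (95% interval 0.01 to 1.65, edgeR adjusted p = 1). Without OE mouse 2 the values of C3ar1 and C5ar1 were both 0.23, against 0.83 and 0.68 with it. At 20 weeks 7 were below 0, from -0.25 for C2 to -0.48 ± 0.39 for C5ar1 (-1.30 to 0.35), and C4b (0.14) and Cfb (0.13) were above 0. Without OE mouse 1 the value of C5ar1 was -0.23. The intervals at 20 weeks reached -0.89 for C1qa, -0.91 for C1qc and -0.66 for C3, so decreases of these sizes were within the error. In the interaction the rise of C3 was smaller in OE by -0.62 ± 0.23 on the log2 scale (unadjusted p = 0.0163) and that of C3ar1 by -1.22 ± 0.54 (unadjusted p = 0.0395). Neither passed the edgeR adjusted threshold (adjusted p = 0.982), so the rises are not shown to differ between the genotypes, and 0 of all genes were called in this contrast.

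**Figure D3:**
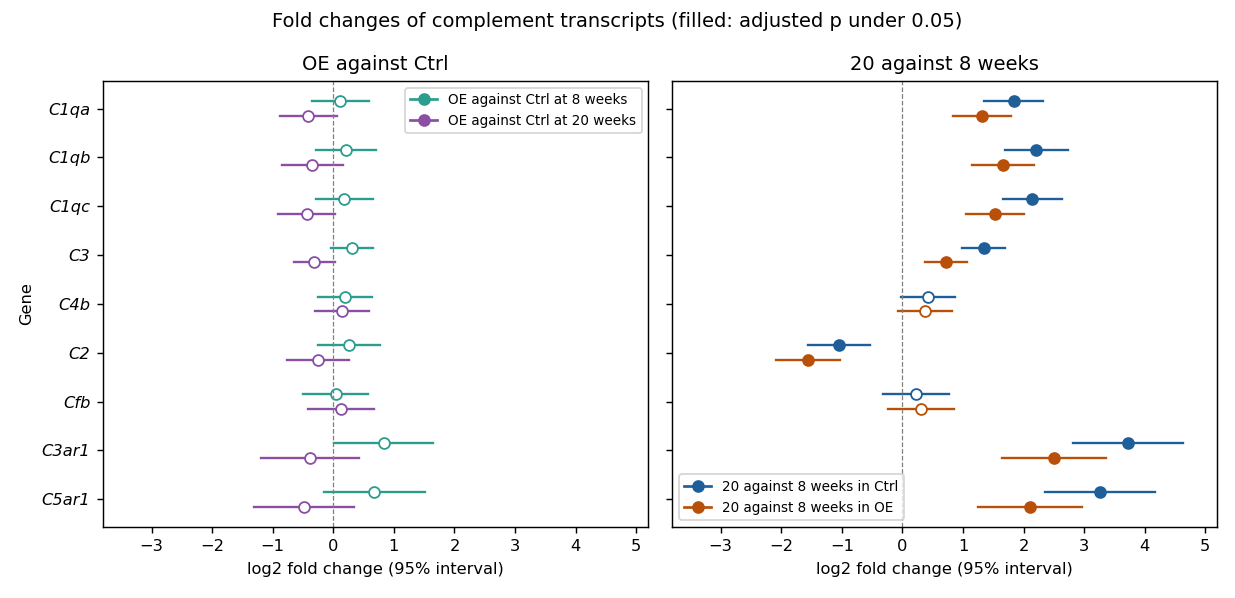
Log2 fold changes with 95% intervals from the edgeR fit; left, OE against Ctrl at each age; right, 20 against 8 weeks in each genotype. Filled points have an adjusted p under 0.05: 7 of 9 genes in each genotype at right, and 0 at left.

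Most macrophage markers rose from 8 to 20 weeks, as did the C1q chains, C3 and the receptors, whereas C2 fell. C4b and Cfb were not called. Of 12 macrophage genes, 11 rose in Ctrl and 0 fell, and 10 rose and 1, Cd163, fell in OE (log2 -0.97, named after its values were seen). Their summed level ran from 1200 to 2031 CPM in Ctrl and from 1492 to 2788 CPM in OE at 8 weeks, and from 4291 to 6817 CPM in Ctrl and from 2959 to 6846 CPM in OE at 20 weeks. The lowest older libraries, Ctrl mouse 4 and OE mouse 1, and the highest OE library at 8 weeks, mouse 2, were also those that stood out for the receptors or the C1q chains. Of 10 mature adipocyte genes, 6 fell and 0 rose in each genotype. Of the other lists, 8 of 8 endothelial genes fell in Ctrl and 2 in OE, 7 of 8 B and plasma cell genes rose in Ctrl and 1 in OE, and 2 of 8 mesothelial genes fell in Ctrl and 6 in OE. Of 10 stromal progenitor genes 3 rose in Ctrl, and 1 rose and 1 fell in OE. Of 6 neutrophil genes tested 2 rose in Ctrl and 1 in OE, and of 8 dendritic cell genes 2 rose and 2 fell in Ctrl and 2 fell in OE. Of 8 hepatocyte genes tested 2 rose and 1 fell in Ctrl and 1 rose in OE, and of 3 epididymal genes tested 2 fell in Ctrl and 1 in OE. These counts stand beside 19.6% of all genes that rose and 21.3% that fell in Ctrl, and 13.1% and 9.91% in OE. Several lay near those shares. In Ctrl these were the dendritic cell genes in each direction, the mesothelial genes that fell and the hepatocyte genes that rose, each 25%. In OE they were the stromal progenitor genes, 10% in each direction, and the neutrophil genes that rose, 16.7%. The B and plasma cell genes and the hepatocyte genes that rose in OE, 12.5% each, were also near. No gene of the macrophage list was at 0 in all 16 libraries. The part of these markers in the results was not tested, and in bulk tissue fewer cells of a type and less RNA per cell cannot be told apart. The hepatocyte list, which stands for the main plasma source of complement, summed to between 3.93 and 23.1 CPM without haptoglobin (Hp), which alone reached 1774 to 8243 CPM.

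To set each gene beside the macrophage list, the mean log2 CPM of the 12 markers was subtracted within each library and the differences were tested with limma. The list mean itself rose by 1.87 in Ctrl and 1.29 in OE on the log2 scale. On this relative scale 2 of the 9 genes rose in Ctrl and 3 fell, beside 1.64% and 88.6% of all genes. In OE 2 rose and 3 fell, beside 1.98% and 79.1%. The markers themselves spread widely on this scale, from -2.30 for Cd163 to 1.72 for Cd68 in Ctrl and from -2.28 to 1.64 in OE. The receptors were the genes that rose: C3ar1 by 1.82 ± 0.24 in Ctrl (limma adjusted p = 4.07e-06) and 1.35 ± 0.24 in OE (adjusted p = 2.98e-04), and C5ar1 by 1.40 ± 0.23 (adjusted p = 1.69e-05) and 0.81 ± 0.23 (adjusted p = 0.00343). The ages overlapped for C5ar1 in OE on this scale, since OE mouse 1 at 20 weeks (-0.60) lay below OE mouse 2 at 8 weeks (-0.52). With only Adgre1 and Csf1r as the reference, the OE value of C5ar1 was 0.34 and not called (adjusted p = 0.188).

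The C1q chains were not called relative to the macrophage list. All 20-week libraries still lay above all 8-week libraries for C1qb in both genotypes and for C1qc in Ctrl. The share of all genes without overlap on this scale was not computed. The relative change of C1qa was -0.03 ± 0.20 in Ctrl (95% interval -0.45 to 0.38) and -0.03 ± 0.20 in OE (-0.44 to 0.39). C1qb gave 0.34 ± 0.18 in Ctrl (limma adjusted p = 0.0736) and 0.32 ± 0.18 in OE (adjusted p = 0.0985), and C1qc 0.27 ± 0.18 and 0.20 ± 0.18. C1qb was called in Ctrl without OE mouse 2 at 8 weeks (0.34, adjusted p = 0.0395). Against Adgre1 and Csf1r alone these signs turned, to -0.33 and -0.16 for C1qb and -0.40 and -0.28 for C1qc, none called, and C1qa was called lower in Ctrl at -0.70 (adjusted p = 0.0127). C3 gave -0.51 ± 0.27 in Ctrl and -0.56 ± 0.27 in OE, neither called, and was called lower against Adgre1 and Csf1r (-1.18 and -1.04). It was also called lower without Ctrl mouse 4 at 20 weeks (-0.67 in Ctrl and -0.56 in OE), without OE mouse 1 at 20 weeks (-0.72 in OE) and without OE mouse 2 at 8 weeks (-0.68 in OE).

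C2, C4b and Cfb fell relative to the list, though the ages overlapped for C4b and Cfb in OE. C2 fell by 2.91 in Ctrl and by 2.79 in OE on the log2 scale. C4b changed by -1.44 ± 0.37 in Ctrl (limma adjusted p = 0.00136) and -0.95 ± 0.37 in OE (adjusted p = 0.0244), and Cfb by -1.59 ± 0.33 (adjusted p = 2.52e-04) and -0.95 ± 0.33 (adjusted p = 0.0155). The OE call of C4b was lost without OE mouse 2 at 20 weeks (-0.83), mouse 4 at 20 weeks (-0.66) or mice 3 or 4 at 8 weeks (-0.85 and -0.86). That of Cfb was lost without OE mouse 4 at 20 weeks (-0.81) or OE mouse 1 at 8 weeks (-0.77). Most of all genes fell on this scale, so these 3 are not set apart by it.

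**Figure D4:**
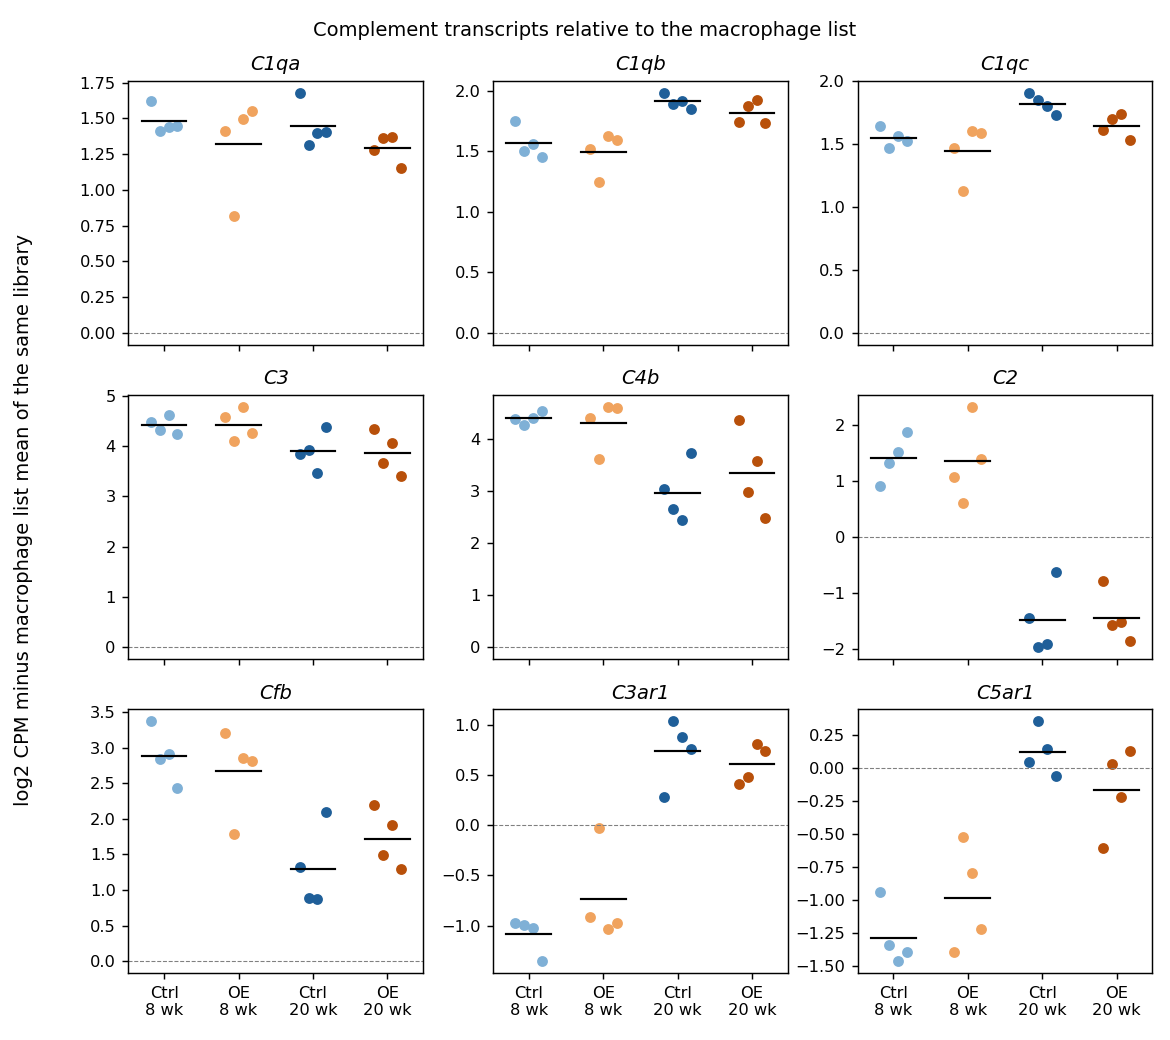
Log2 CPM of each gene minus the mean log2 CPM of 12 macrophage markers in the same library; bars are group means (n = 4) and the dashed line is the marker mean. C3ar1 sits higher at 20 weeks in both genotypes, C5ar1 sits higher in Ctrl and overlaps between ages in OE, C1qa overlaps between ages, and C2 sits lower. C1qb also sits higher at 20 weeks in both genotypes and C1qc in Ctrl, though not called. C4b and Cfb overlap between ages in OE.

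The rest of the pathway was read from 46 further complement genes, of which 40 could be tested. In Ctrl 17 rose and 6 fell, with a median log2 fold change of 0.27, and in OE 7 rose and 3 fell, with a median of -0.01. As shares of the 40 genes tested, the counts were 42.5% and 15% in Ctrl and 17.5% and 7.5% in OE, beside 19.6% and 21.3% of all genes in Ctrl and 13.1% and 9.91% in OE. The share that fell in Ctrl and both shares in OE thus lay near or below those of all genes. With 2 surrogate variables the Ctrl counts were 10 and 2, and without Ctrl mouse 3 at 20 weeks 3 fell. Without both mice numbered 1 at 8 weeks 6 fell in OE.

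All 7 further receptor genes rose in Ctrl and 5 of 7 in OE (71.4%), beside 19.6% and 13.1% of all genes. Itgax, a chain of complement receptor CR4, went from 10.9 to 37.3 CPM at 8 weeks to 213 to 423 CPM at 20 weeks in Ctrl (log2 4.12 ± 0.48) and from 11.9 to 33.7 CPM to 196 to 594 CPM in OE (4.06 ± 0.48). Its partner Itgb2 rose by 2.33 ± 0.42 and Itgam, a chain of CR3, by 1.52 ± 0.37 in OE, where the ages overlapped for Itgam. With 2 surrogate variables Itgam in OE gave 0.64 and was not called. C5ar2, the second C5a receptor, whose gene lies 2588 bases from C5ar1, rose by 3.35 ± 0.43 in Ctrl and 2.2 ± 0.40 in OE. Vsig4, a macrophage receptor for C3 fragments, rose by 2.78 ± 0.41 in Ctrl, and gave 0.79 ± 0.39 in OE, not called. Cd93 rose by 0.64 ± 0.15 in OE, a call lost with 2 surrogate variables (0.37).

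Cfd, the protease that activates factor B, fell in both genotypes. It gave 1983, 3847, 4565 and 6538 CPM in Ctrl at 8 weeks and 281, 147, 111 and 296 CPM at 20 weeks. The OE values were 3047, 3531, 7176 and 4657 CPM, then 530, 250.2, 267 and 188 CPM. All older libraries lay below all younger ones, and the fall was 20.3-fold in Ctrl (log2 -4.34 ± 0.49) and 14.9-fold in OE (-3.90 ± 0.48). Cfb TPM was divided by Cfd TPM in each library. The median of this ratio went from 0.0291 to 0.836 in Ctrl and from 0.0320 to 0.807 in OE.

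Of 11 classical and lectin pathway genes tested, 6 rose and 2 fell in Ctrl, and 1 rose and 1 fell in OE. Apart from the rises in Ctrl (54.5% against 19.6% of all genes), these shares were near or below those of all genes. C1rb, which encodes a C1r protease, rose by 0.64 ± 0.10 in Ctrl and the scavenger receptor Colec12 by 0.84 ± 0.11, and in OE these gave 0.03 and 0.20, not called. Masp1, a protease of the lectin pathway, fell by 1.66 in Ctrl and 1.52 in OE on the log2 scale. Colec11, a lectin, fell by 1.23 in Ctrl, a call lost with 2 surrogate variables (-0.42) and without Ctrl mouse 3 at 20 weeks (-1.06). Mbl1, a mannose-binding lectin, had 0 counts in all 8-week libraries and 0.295 to 0.864 CPM in OE at 20 weeks. Against a floor of 3 counts over the group it was at least 33.2-fold higher in Ctrl and at least 28.1-fold higher in OE.

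Of 15 regulators tested, 2 rose and 2 fell in Ctrl, and 0 rose and 1 fell in OE, in each case a smaller share than that of all genes. Of 5 terminal components, 1 rose and 1 fell in Ctrl, 20% each, near the 19.6% and 21.3% of all genes. In OE 1 rose, 20% beside 13.1% of all genes, and 0 fell, beside 9.91%. The terminal gene that rose was Hc, which encodes C5, named after its values were seen. It gave 0 to 0.227 CPM in Ctrl and 0 to 0.218 in OE at 8 weeks, and 0.599 to 3.69 and 0.236 to 3.95 at 20 weeks. Its log2 fold change was 4.20 ± 1.15 in Ctrl (edgeR adjusted p = 0.0110) and 3.32 ± 1.12 in OE (adjusted p = 0.0451), where it was 1.59 and not called without OE mouse 4 at 20 weeks. The OE call of Hc was also lost without 11 other single libraries, at an adjusted p of 0.0504 to 0.112, and the Ctrl call with 2 surrogate variables. Of the regulators, vitronectin (Vtn), also named after its values were seen, rose by 0.55 ± 0.19 in Ctrl (edgeR adjusted p = 0.0360), a call lost with 2 surrogate variables and without any 1 of Ctrl mice 1 to 3 at either age (0.45 to 0.56). Serping1, the C1 inhibitor, rose by 0.73 ± 0.11 in Ctrl and gave 0.30 ± 0.11 in OE, not called. Clusterin (Clu), which blocks the terminal complex, fell by 0.95 in Ctrl and 1.24 in OE on the log2 scale, and the Ctrl call was lost with 2 surrogate variables (-0.59). C4bp had 0 counts in all Ctrl libraries at 20 weeks and 0 to 4.70 CPM at 8 weeks, highest in mouse 4, which held epididymal transcripts. It was at least 114-fold lower against 3 counts over the group, and its call was lost without any 1 of the Ctrl libraries at 20 weeks (edgeR adjusted p of 0.0502 to 0.0605) or without Ctrl mouse 4 at 8 weeks (0.0523), and with 2 surrogate variables (log2 -4.38 against -9.28, adjusted p = 0.329). C6, a terminal component, fell by 0.89 in Ctrl, a call lost with 2 surrogate variables (-0.57) and without Ctrl mouse 2 (-0.71) or mouse 3 (-0.80) at 20 weeks.

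**Figure D5:**
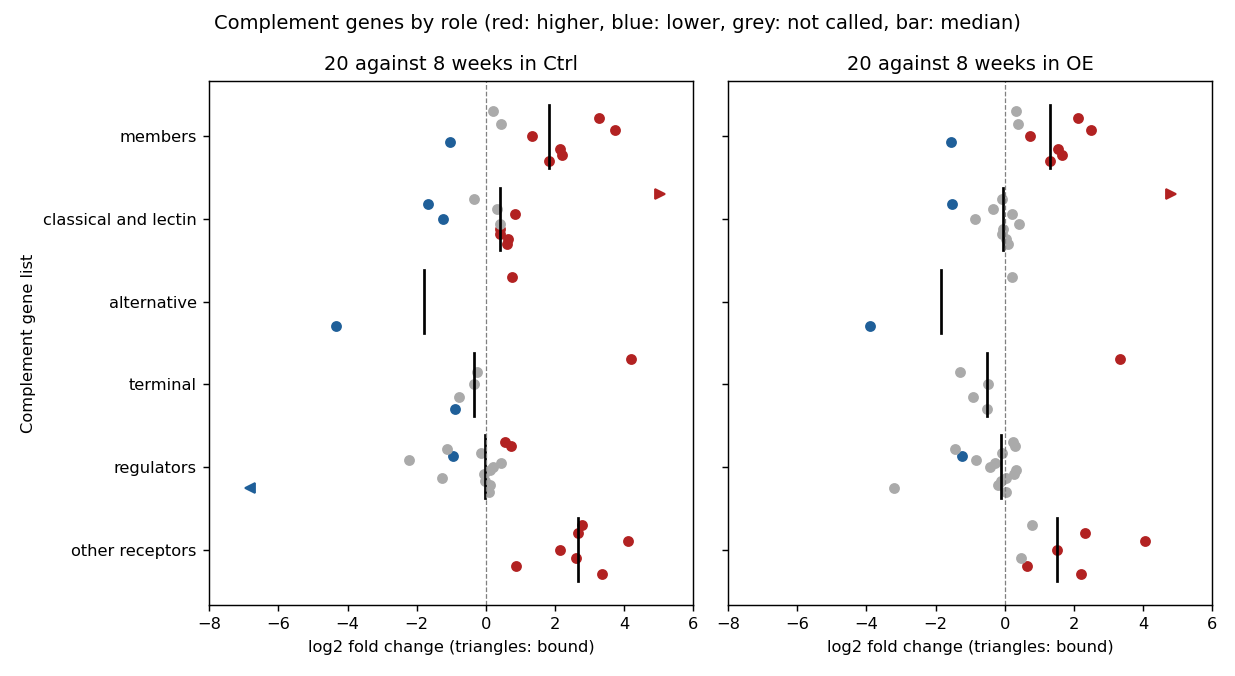
Log2 fold changes from 8 to 20 weeks of the 9 genes and 40 further complement genes by role, in Ctrl and OE. Points are genes, triangles are lower bounds for genes at 0 in all libraries of a group, and bars are list medians; the receptor lists lie to the right, and Cfd is the blue point of the alternative pathway.

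Within groups, the deviations of log2 CPM from the group mean over the 16 libraries show which genes ran most alike, as a description only. C1qb and C1qc had a Pearson r of 0.991, and 0.984 over the 13 libraries without those that stood apart on the principal components. Pltp, a phospholipid transfer protein, came next for C1qb (r = 0.978), and Gbgt1 was the closest gene to C1qa outside the family (0.95). C3ar1 was closest to Apobec1 (0.979) and Lgmn (0.969), and C5ar1 to Ap5z1 (0.971), Cd37 (0.969) and C5ar2 (0.962). C3ar1 and C5ar1 reached 0.883 with each other, and C5ar1 reached 0.888 with C1qb and 0.862 with C1qc. C4b was closest to C4a (0.991), with which it may share reads, and then to Pdgfd (0.904). C3 ran with Mettl3 (0.911) and C2 with Plcl1 (0.854). Cfb ran with Stim2 at 0.944, which was 0.791 over the 13 libraries. Its r with C5ar1 was -0.04 over 16 libraries and -0.85 over 13. Genes measured in the same library share its depth and its mixture of cells.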

How the data were processed

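Messenger RNA of epididymal fat was measured in 16 stranded libraries, 4 in each of 4 groups taken from the labels. Reads were handled by the authors with HISAT2 2.1.0, StringTie 2.1.3b, bcl2fastq 2.20.0 and Trimmomatic on build mm10, per the submitters' processing notes; the annotation release and the strand setting of counting are not given in the sources used here. The deposited counts are whole numbers that the authors had not normalized, and as StringTie derives counts from coverage they may be rounded estimates. The deposited TPM values, per gene length and scaled to one sum per library by the authors, were used only to compare levels between genes and for ratios. The deposited FPKM values were not used.

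Counts were tested in R 4.3.3 with edgeR 4.0.16: filterByExpr at a minimum count of 10, TMM scaling, a robust quasi-likelihood fit of the 4 group means with 12 residual degrees of freedom, and Benjamini-Hochberg adjustment over all 19189 genes. A call is an adjusted p under 0.05, and errors of fold changes are standard errors. Levels relative to the macrophage list were tested on log2 CPM (prior count 2) with limma 3.58.1. The scripts were tested on simulated data. Alternatives were DESeq2 1.42.0, limma voom with quality weights, RLE scaling, no filter, fewer groups in the fit, a replicate block, 2 surrogate variables (sva 3.50.0), each library left out, and the libraries that stand apart left out. The exclusion of OE mouse 1 at 20 weeks with both mice numbered 1 at 8 weeks was chosen after seeing the data.

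The members and gene lists were chosen with earlier results of these data known. All 9 members are named. Of the other complement genes, up to 6 called genes per direction with the smallest adjusted p are named for each age comparison, plus C4a, Cfd and C5ar2 beside a member; the genes most like a member are the 3 with the highest r, of which some are printed. Marker lists covered macrophages, adipocytes, stromal progenitors, mesothelium, hepatocytes, neutrophils, dendritic cells, epididymal epithelium, endothelium, and B and plasma cells. Per-library depth was 33626901 to 67576994 counts, and mouse numbers were not taken as pairs.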

Additional observations from a re-analysis of the deposited data

Results flagged for a closer look

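Log2 CPM of the 9 genes was examined for a library far from the other 3 in each of 36 gene and group combinations, and 3 were marked. Chance marks about 1 in 20 such groups. The value of C1qc in Ctrl mouse 4 at 20 weeks was 8.92, below the others at 9.57 to 9.68. The value of C3ar1 in Ctrl mouse 1 at 8 weeks was 5.09, above the others at 4.48 to 4.56. The value of C3ar1 in OE mouse 1 at 20 weeks was 7.11, below the others at 8.16 to 8.35. Each of these libraries was also the lowest or the highest of its group for the summed macrophage markers, at 4291, 2031 and 2959 CPM. The part of that in these values was not tested.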

How the results depend on the processing

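The count of the 9 genes called between genotypes or in the interaction stayed at 0 in each alternative run. Between the ages, 6 or 7 were higher in each genotype when single libraries were left out or the other settings were used, except for 5 in OE with 2 surrogate variables, where C3 was not called. The count lower in Ctrl was 1, and 0 with 2 surrogate variables; that fit called 1083 genes higher and 675 lower in Ctrl, against 3770 and 4083, and 1617 and 1078 in OE, against 2509 and 1902. Relative to the macrophage list, the count lower in OE ranged from 1 to 4 when 1 library was left out, and was 1 without both mice numbered 1 at 8 weeks. With Adgre1 and Csf1r as reference, 5 were lower in Ctrl and 1 higher in OE.

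The direction of some values turned. C1qb and C1qc relative to Adgre1 and Csf1r were -0.33 and -0.40 in Ctrl and -0.16 and -0.28 in OE. Relative to the macrophage list they were 0.34 and 0.27 in Ctrl and 0.32 and 0.20 in OE. Their sign thus depended on the markers used as reference. C1qa relative to the macrophage list was 0.0159 in Ctrl and 0.00401 in OE without both mice numbered 1 at 8 weeks, and 0.0159 and 0.00842 when OE mouse 1 at 20 weeks was also left out; single libraries left out gave -0.11 to 0.0159 in Ctrl and -0.19 to 0.0498 in OE. The interaction of Cfb was -0.0551 and -0.0026 under those exclusions, and -0.25 to 0.29 with single libraries left out. That of C4b ranged from -0.17 to 0.11. The 8-week genotype values ranged from -0.0228 to 0.48 for C2 and from -0.16 to 0.38 for Cfb. DESeq2 called 1 further complement gene lower in OE at 20 weeks, C1s1 (-0.25, adjusted p = 0.0391), and 3 in the interaction, C1s1 (-0.49), C1rb (-0.61) and Colec12 (-0.64), named after their values were seen; the edgeR adjusted p of these was 0.996 and 0.982.

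The labels do not state that mouse numbers pair the libraries. Deviations of same-numbered libraries correlated between -0.597 and 0.826, with a median of -0.102, and 2 of 16 libraries correlated best with their own number. These values cannot exclude that some same-numbered libraries share an origin. With the replicate block, 6 genes rose and 1 fell in each genotype and 0 were called between genotypes; relative to the macrophage list 2 rose and 3 fell in each. The block ended the calls of C4bp in Ctrl (-9.77, adjusted p = 0.0631) and Hc in OE (3.18, adjusted p = 0.0564). The causes of these changes were not tested. With 4 libraries a group, the intervals printed beside the values show the error of each value. They are not adjusted for the number of genes and do not give the smallest change that could be called.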
